A study of Arabidopsis thaliana with 12 samples.

Results

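The noncoding entries described here are reference sequences of the Arabidopsis thaliana nuclear genome whose identifiers carry the letters NC after a chromosome number, such as At3NC007640. An entry was kept where its read counts over the 12 libraries summed to at least 200, which left 531 of 13230 noncoding entries, or 4.01%, among 87128 reference sequences in all. The rule therefore used measured values: it chose on level, not on any difference between groups, and the sums just inside it were 200 for At1NC000060, 200 for At1NC072090 and 201 for At5NC035100. Just outside it lay At1NC038650 with 199, At1NC098990 with 198 and At4NC002420 with 198. The files give each entry a length and a count but no position, strand or product, so the entries are named by identifier, the chromosome is read from the identifier, and no sequence is printed. The label of long noncoding RNA could not be tested beyond length: members ran from 199 to 3967 bases with a median of 483, against 322 for all noncoding entries, and 64 were longer than 1000 bases.

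Long noncoding RNAs are transcripts without a recognised open reading frame, and many in plants arise between genes or on the strand opposite a gene. Most are transcribed by RNA polymerase II, are kept at low levels by nuclear decay through the RNA exosome, and vary strongly with stress and tissue. Plant examples with known roles include precursors of trans-acting small RNAs, decoys that bind microRNAs, and the RNA of the signal recognition particle.

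The libraries came from whole wild-type Col-0 seedlings grown in liquid culture, with the cotyledons open, and were strand-specific libraries of total RNA after depletion of ribosomal RNA. The control group was unheated and sampled at an age of 6 days. Priming seedlings were 6 days old and were held at 38 °C for 30 min. Heat shock seedlings were 7 days old and were held at 43 °C for 30 min without earlier treatment. Primed heat shock seedlings were 7 days old and received 38 °C for 2 h, 21 °C for 22 h and then 43 °C for 30 min. Each group had 3 libraries, and the labels do not state whether these stem from separate cultures. Per the labels, libraries of the same replicate number share a harvest date, also between the groups of 6 and 7 days. A p-value therefore reflects library-to-library spread, which takes in any spread between harvest dates and may otherwise be technical. The unheated control is a day younger than both groups held at 43 °C, and age and 43 °C cannot be told apart in those comparisons. These are bulk samples, in which a change in the number of cells of a type and a change in RNA per cell cannot be told apart.

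Aligned reads ran from 72075150 to 152118790 per library, of which 0.421% to 0.934% fell on ribosomal RNA. Shoot, root and seed markers were all detected in each group: the summed level of the 3 shoot markers ran from 2845 to 3276 CPM in control, where CPM are counts scaled to a common library total, and that of the 6 seed markers from 22.1 to 55.8 CPM. The summed level of the 3 root markers ran from 450 to 564 CPM in control, 289 to 317 in priming, 456 to 524 in heat shock and 671 to 692 in primed heat shock, and seed markers ran from 16.5 to 21.8 CPM in heat shock. The root sum was mostly the marker PYK10, which averaged 453 CPM in control and 661 in primed heat shock. The root markers did not move together. Between the same groups PER3 went from 37.5 to 16.2 CPM, and the libraries of TIP2-3 overlapped. The part of these marker shifts in the results was not tested. The heat shock protein gene HSP101 averaged 38.2 CPM in control, 20982 in priming, 750 in heat shock and 1040 in primed heat shock, so the heat labels show in every heated group.

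Levels are CPM scaled by the trimmed mean of M-values (TMM). Averaged over the 12 libraries, members ran from 0.109 to 9236 CPM with a median of 0.343. Most were therefore rare RNAs: 102 members averaged at least 1 CPM and 22 at least 10 CPM. A single entry held most of the signal. At2NC069500, an entry of 299 bases, took 55.9% to 73.1% of all member counts in a library and averaged 30890 CPM per kilobase. Its level was 9016, 3423 and 4431 CPM in control, 13797, 6410 and 9173 in priming, 12693, 12144 and 11488 in heat shock and 10032, 7341 and 10886 in primed heat shock. Heat shock libraries were all above the control libraries (log2 change 1.11 ± 0.34, SE, n = 3 per group, edgeR adjusted p = 0.0156), while priming and control overlapped. The call was lost without control replicate 2 (adjusted p = 0.0540) or control replicate 3 (adjusted p = 0.0632). Next per kilobase came At4NC005680 and At1NC107700, which rose in priming by 1.13 ± 0.28 and 1.11 ± 0.20 on the log2 scale and in heat shock by 1.21 ± 0.28 and 1.09 ± 0.20, with edgeR adjusted p-values of at most 0.00433.

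Because At2NC069500 is so abundant, the share of counts held by members follows it. Members held 1.15% ± 0.363 (SD, n = 3) of counts outside ribosomal RNA in control, 1.12% ± 0.246 in priming, 1.74% ± 0.144 in heat shock and 1.48% ± 0.168 in primed heat shock. The difference of heat shock from control was 0.592 percentage points, with no overlap between libraries (exact two-sided permutation test, p = 0.1, the smallest that 3 against 3 can give). That of primed heat shock from heat shock was -0.260 points (exact permutation p = 0.2) and that of priming from control was -0.0278 points (exact permutation p = 1). Without the 10 members of highest summed count the shares were 0.0560% ± 0.00370, 0.0468% ± 0.00293, 0.0788% ± 0.00465 and 0.0785% ± 0.00354 in the same order. Many rare members would fall below 200 counts without a 43 °C group, so no comparison is drawn from these shares. Over all noncoding entries, with no threshold on counts, the shares were 1.15% ± 0.363, 1.12% ± 0.245, 1.75% ± 0.144 and 1.49% ± 0.167. Heat shock then differed from control by 0.598 points, against 0.592 for the members. Members held nearly all noncoding counts, so dropping the threshold could hardly change this difference, and it is no check on the rule.

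All 531 members passed the filter on low counts. Tested for any difference among the 4 groups, 417 members, or 78.5%, passed at an adjusted p of 0.05, against 83.3% of all 26159 sequences tested. The group of highest mean was heat shock for 212 members, primed heat shock for 169, control for 82 and priming for 68. The group of lowest mean was priming for 275 and control for 180, but heat shock for 26 and primed heat shock for 50. The rule bears on this: 212 members would fall below 200 counts without their highest group, 91 of them through heat shock and 72 through primed heat shock, 34 through control and 15 through priming. A member let in by its highest group is more likely to be high there, though a rare entry can fall below 200 without any difference. Counts over all 531 members are therefore descriptions, and the counts of rises and falls are followed by those for the other 319. The 319 are not free of this choice, since only the highest group was set aside. A member high in heat shock and in primed heat shock can stay among them through whichever is lower. At3NC018250 did so, with 0 counts in control, 948 in heat shock and 1065 in primed heat shock. Rises of the 319 in these groups against control are therefore descriptions too. The test among the 4 groups passed for 241 of the 319.

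**Figure D1:**
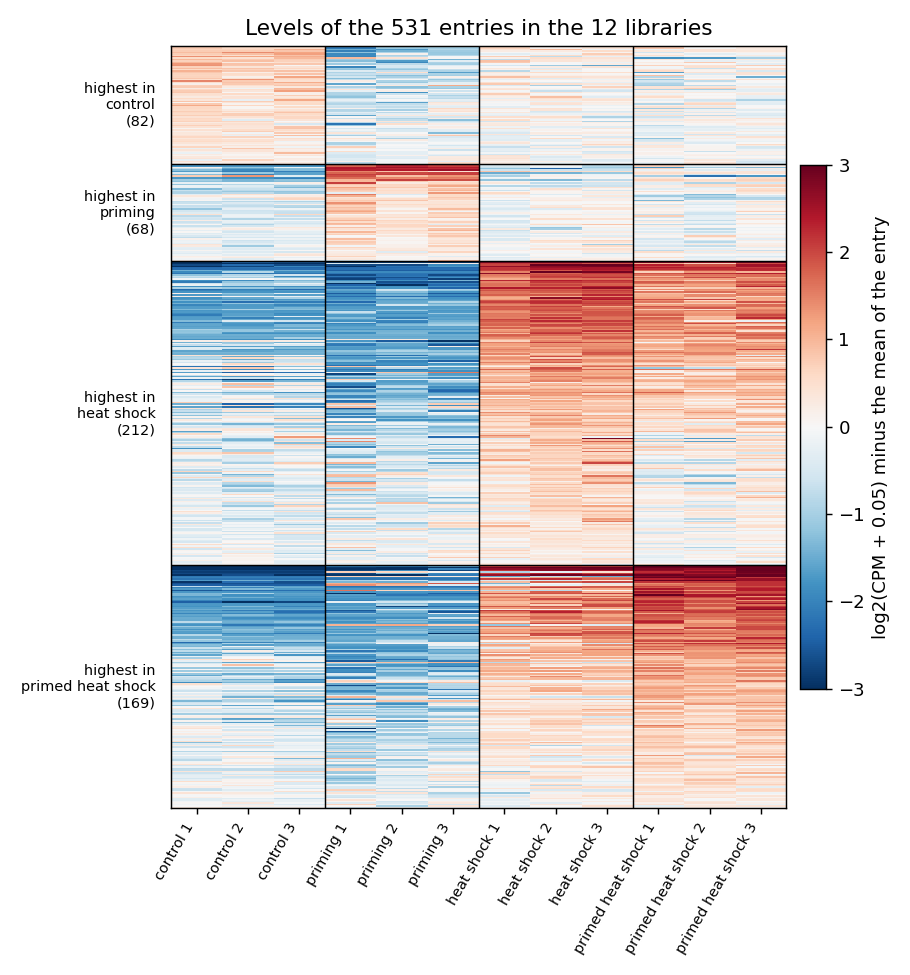
Level of each of the 531 noncoding entries (rows) in the 12 libraries (columns), as log2(CPM + 0.05) minus the mean of the entry. Rows are grouped by the group of highest mean and ordered by the range of the group means. The 2 large blocks are the 212 entries highest in heat shock and the 169 highest in primed heat shock, which are largely red in both 43 °C groups. Not all rows are: 17 of the 212 had their lowest mean in primed heat shock, and 5 of the 169 in heat shock.

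Far more members were higher than lower in heat shock. Against control, 279 members rose and 22 fell, where 27.9% of all sequences tested were higher and 24.5% lower; of the 319, 152 rose and 15 fell. The libraries did not overlap for 360 members, or 67.8%, against 62.5% of all sequences. The median log2 change was 0.91 over the 531 and 0.67 over the 319, against 0.01 over all sequences, and it was also 0.91 with the 35 members at 0 counts in control set to their bounds. Nuclear gene loci went both ways, 5835 rising and 6256 falling of 23383. Transposon or intergenic entries resembled the members, with 746 rising and 78 falling of 1490, and so did microRNA precursors, with 22 rising and 0 falling of 45. The share of members that rose was 49.0% under 0.5 CPM, 55.3% from 0.5 to 2 CPM and 65.7% from 2 CPM upward, where nuclear gene loci stood at 37.8%, 31.4% and 20.7%. The count depended on scaling: with library totals alone 207 rose and 60 fell, and with factors set on noncoding entries 177 rose and 124 fell. Relative to the median of all sequences, the median of the members was higher by 0.90, 0.88 and 0.88 on the log2 scale under TMM and these 2 scalings. A change of scaling shifts all log2 changes of a comparison by nearly the same amount. This difference could therefore hardly change, and it is no check on the counts.

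The excess was smaller where entries were chosen without the heated groups. Of 462 noncoding entries with at least 50 counts summed over the 3 control libraries alone, 459 were tested, and 138 rose and 28 fell in heat shock with a median log2 change of 0.42. Nuclear gene loci chosen in the same way numbered 21749 tested, of which 4616 rose and 6247 fell with a median of -0.08. These sets were not matched for level. Of the noncoding entries 30.1% rose and 6.10% fell. Among all gene loci tested that averaged under 0.5 CPM, 37.8% rose and 12.1% fell, with a median log2 change of 0.49. The choice on control uses the control libraries, so entries that were high there by chance are favoured and a fall is read more easily than a rise.

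**Figure D2:**
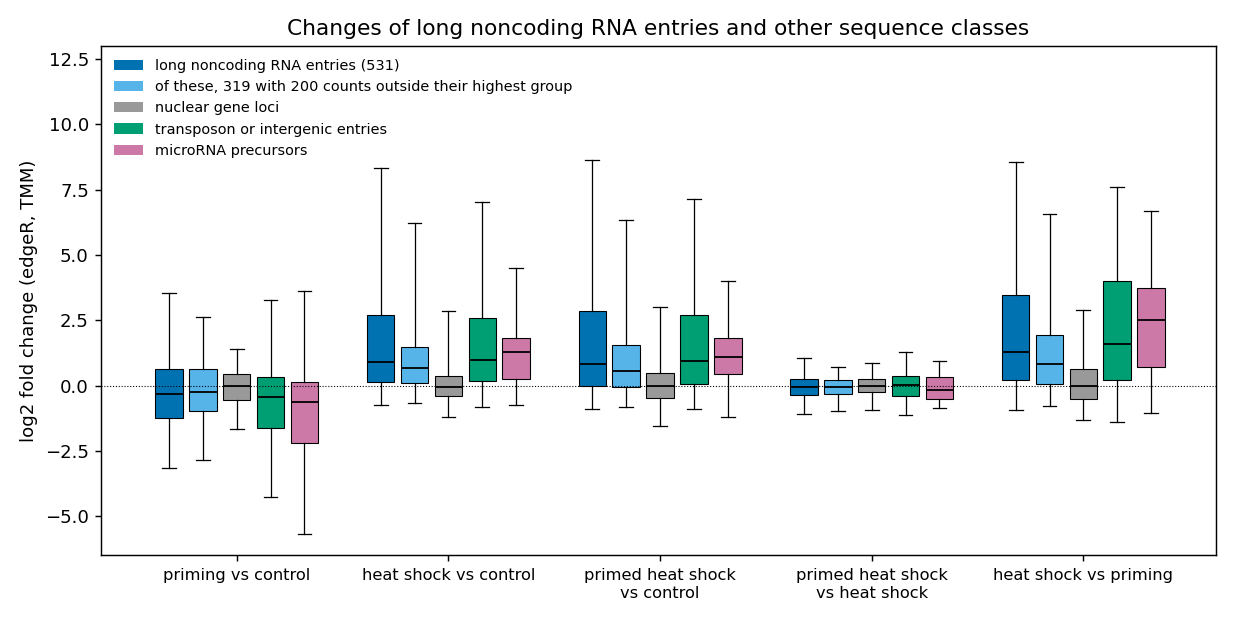
Log2 fold change from edgeR (vertical axis) in 5 comparisons for the 531 noncoding entries, the 319 with at least 200 counts outside their highest group, nuclear gene loci, microRNA precursors and the entries of transposons or intergenic regions; boxes span the quartiles, the line is the median and whiskers reach the 5th and 95th percentiles. The medians of all classes but the gene loci lie above 0 in both 43 °C groups against control, and the gene loci centre near 0.

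Many of the steep rises in heat shock belonged to entries with few or no reads in control. In all, 35 members had 0 counts in the 3 control libraries, and 17 of these were also at 0 in priming; none was at 0 in heat shock or primed heat shock. All 35 were higher in heat shock and in primed heat shock, and 12 were also higher in priming, where 26.7% of all sequences rose. In each of these comparisons 0 counts in control fix the direction. At3NC018250 stood at 2.57, 2.88 and 3.06 CPM in heat shock and 2.87, 2.56 and 4.68 in primed heat shock, with 0 in control and 0.0553 CPM in a single priming library. Its rise was at least 488-fold against a floor of 3 counts over the control group. Its neighbour At3NC018260 was at 1.44, 2.14 and 1.81 CPM in heat shock, at least 307-fold higher than control, so the pair of neighbouring entries showed the same pattern. At3NC031590 read 0 in every control and priming library and 1.05, 1.27 and 1.30 CPM in heat shock, at least 207-fold higher than control. The bounds over the 35 members ran from 7.21-fold to 488-fold with a median of 69.5. Among the other named rises, At5NC013420 was at least 303-fold, At3NC078160 at least 239-fold and At2NC069660 at least 178-fold higher than control. At1NC103860 had a single count in control, in replicate 2, and a ratio of 677 (95% counting interval 121 to 26785).

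At4NC056500 was the most abundant of these entries and separated all 4 groups. It held 0, 0 and 0.0167 CPM in control, 0.181, 0.185 and 0.276 in priming, 4.15, 4.27 and 4.05 in heat shock and 14.7, 13.5 and 20.9 in primed heat shock. No groups overlapped, in the order control, priming, heat shock, primed heat shock. Its 3 control counts all came from replicate 3, and its ratio of heat shock to control was 715 (95% counting interval 244 to 3472). Primed heat shock exceeded heat shock by 1.98 ± 0.18 on the log2 scale (edgeR adjusted p = 2.37e-06). Intervals here cover counting error only, since reads are not independent molecules.

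**Figure D3:**
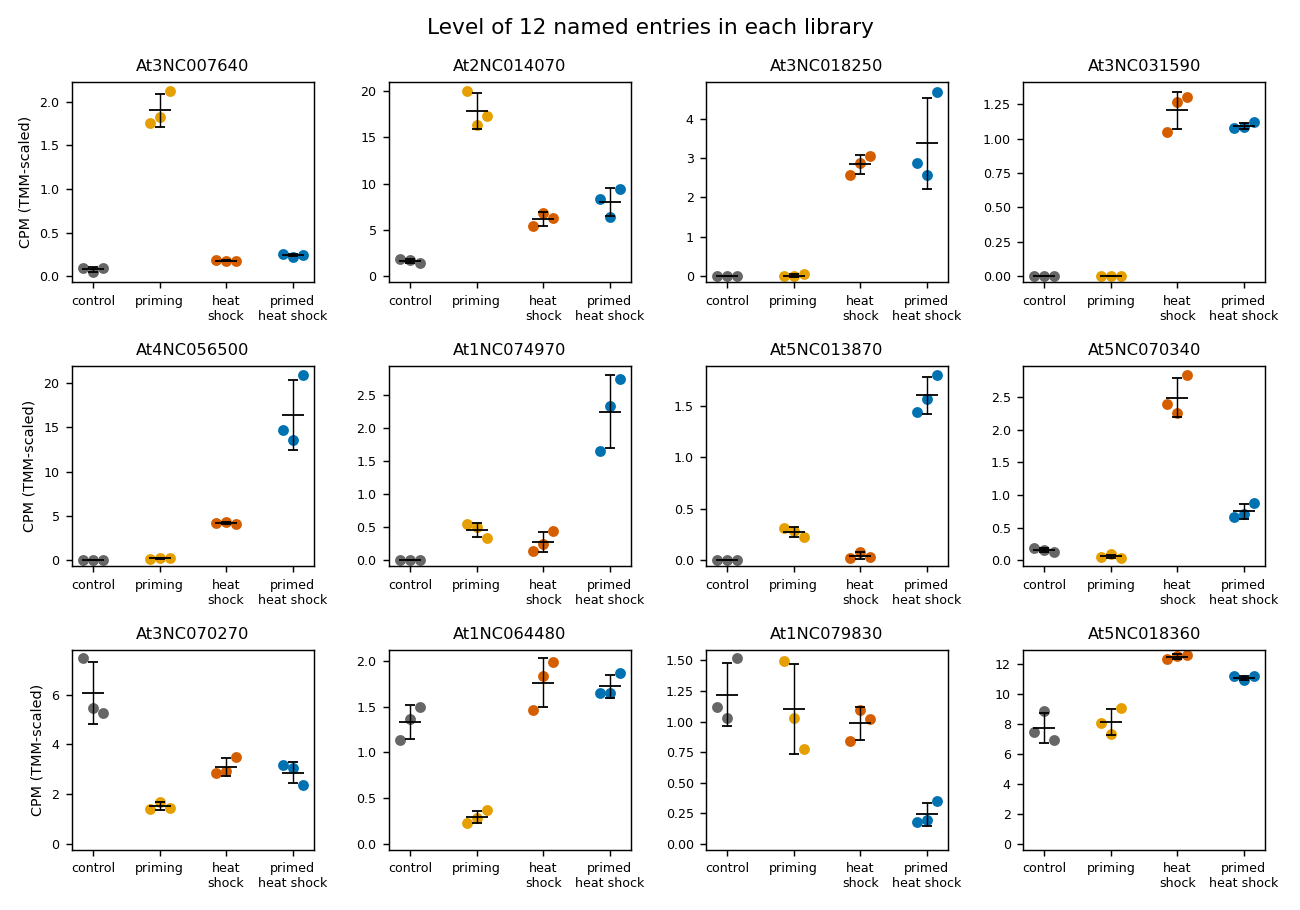
Level in CPM (vertical axes, linear, TMM-scaled) of 12 named entries in each library; coloured points are the 3 libraries of a group, the bar is the mean and the whiskers are 1 SD. At3NC018250 and At3NC031590 are at or near 0 outside the 43 °C groups, At3NC007640 is highest in priming, At5NC013870 and At1NC074970 are highest in primed heat shock, and At1NC079830 is lowest there.

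Falls in heat shock were few and small. At3NC070270 went from 7.49, 5.45 and 5.28 CPM in control to 2.85, 2.93 and 3.50 in heat shock, a log2 change of -0.97 ± 0.16 (edgeR adjusted p = 0.000149). It was lower still in priming, at 1.40, 1.70 and 1.46 CPM (log2 change -1.99 ± 0.17), and the control libraries lay above all others. At3NC043150 changed by -0.85 ± 0.15 and At4NC030770, an entry of 3338 bases, by -0.82 ± 0.19 on the log2 scale. At1NC066150 and At1NC041700 fell by 0.71 ± 0.20 and 0.54 ± 0.16 on that scale. At2NC001370 had a larger change of -1.23 ± 0.40, but its adjusted p was 0.0803 without heat shock replicate 2 and 0.0734 without heat shock replicate 3, and the change was -1.84 without heat shock replicate 1. At5NC055270 and At5NC065380 also passed with all libraries. At5NC055270 had adjusted p-values of 0.0643 without heat shock replicate 2 and 0.0701 without heat shock replicate 3. At5NC065380 had 0.104 without control replicate 2 and 0.0676 without heat shock replicate 1.

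Priming moved members in both directions. Against control, 99 members rose and 139 fell, where 26.7% of all sequences were higher and 27.1% lower, before any account of level; of the 319, 68 rose and 92 fell. The libraries of the pair of groups did not overlap for 254 members, or 47.8%, against 57.9% of all sequences. The median log2 change was -0.34 over the 531 and -0.19 with members at 0 in a group set to their bounds, against -0.02 over all sequences. The counts differed with level. Of 67 members from 2 CPM upward, 32 rose and 9 fell with a median of 0.67, and 10 of the 32 belong to a run of entries on chromosome 2 described with its values after the named entries. Under 0.5 CPM 46 rose and 94 fell of 341. The share that rose was 13.5%, 17.1% and 47.8% under 0.5 CPM, from 0.5 to 2 CPM and from 2 CPM upward, against 11.0%, 14.0% and 34.1% of nuclear gene loci at the same levels. The share that fell was 27.6%, 29.3% and 13.4%, against 17.1%, 31.0% and 29.1% of gene loci. With library totals alone 53 rose and 271 fell, a setting that moved the median of all sequences by -0.88. Among entries chosen on control alone, 60 rose and 158 fell of 459, or 13.1% and 34.4%. Of 21749 nuclear gene loci chosen in the same way, 27.9% rose and 29.2% fell. As stated for heat shock, this choice favours falls and the sets were not matched for level. Priming and heat shock share the control libraries, so their lists are not independent.

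Among members averaging at least 1 CPM in priming, the largest rise was that of At3NC007640. Its level was 0.0983, 0.0438 and 0.0948 CPM in control and 1.76, 1.83 and 2.12 in priming, then 0.185, 0.178 and 0.175 in heat shock and 0.255, 0.227 and 0.246 in primed heat shock. Priming stood clear of all other groups, with a log2 change of 4.61 ± 0.31 from control (edgeR adjusted p = 9.04e-09). The neighbouring entry At3NC007630 read 2.11, 2.06 and 2.10 CPM in priming against 0.159, 0.0779 and 0.117 in control, a log2 change of 4.17 ± 0.33. At4NC002310 rose by 4.20 ± 0.53 and was 0 in 1 heat shock library, where it did not pass against control. At3NC005080, an entry of 271 bases, rose from 0.453, 0.355 and 0.401 CPM to 2.02, 4.24 and 3.94 (log2 change 3.09 ± 0.26). It was at 0.411, 0.366 and 0.550 CPM in heat shock and overlapped control there. At2NC049400 and At1NC042550 rose by 2.71 ± 0.23 and 2.63 ± 0.28 in priming, and by 4.24 ± 0.22 and 3.52 ± 0.28 in heat shock.

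Several entries fell in priming and did not pass in heat shock against control. At1NC064480, of 2279 bases, was at 1.13, 1.36 and 1.5 CPM in control and 0.230, 0.282 and 0.369 in priming (log2 change -2.19 ± 0.23, edgeR adjusted p = 1.28e-06). In heat shock it held 1.47, 1.83 and 1.99 CPM, and heat shock exceeded priming by 2.59 ± 0.23 on the log2 scale. At3NC032690, At4NC036680, At1NC093181 and At4NC000790 changed by -1.60 ± 0.24, -1.38 ± 0.20, -1.13 ± 0.22 and -1.07 ± 0.22 in priming. All 5 were higher in heat shock than in priming, by 1.14 to 2.59 on the log2 scale. They were picked as falls in priming that did not pass in heat shock, with the same priming libraries, so this direction was nearly given. At2NC001370 and At4NC030770 fell by 2.15 ± 0.45 and 1.19 ± 0.20 on the log2 scale in priming.

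A run of 10 members on chromosome 2, from At2NC013940 to At2NC015240, rose together in priming; it was singled out after its values were seen. All 10 passed, with log2 changes from 1.1 to 3.41 and a median of 1.30, and 9 of the 10 also rose in heat shock. At2NC014070 went from 1.86, 1.75 and 1.46 CPM in control to 20.0, 16.3 and 17.3 in priming, 5.39, 6.83 and 6.31 in heat shock and 8.38, 6.41 and 9.37 in primed heat shock. Control was lowest and priming highest without overlap (log2 change 3.40 ± 0.16, edgeR adjusted p = 9.52e-11). As background, chromosome 2 of Arabidopsis carries a large insertion of the mitochondrial genome. In these libraries 120 of 123 mitochondrial loci tested were also higher in priming, with a median log2 change of 1.22, and 115 were higher in heat shock. Whether reads of mitochondrial origin contribute to the counts of this run was not tested. By chromosome, the median log2 change of members ran from 0.86 on chromosome 2 to 1.19 on chromosome 4 in heat shock, and from 0.56 on chromosome 3 to 1.30 on chromosome 4 in primed heat shock against control. In priming 12 of 130 members rose on chromosome 5 and 23 of 96 on chromosome 3. Differences between chromosomes were not tested.

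Primed heat shock against control gave counts close to those of heat shock. In this comparison 284 members rose and 31 fell, against 32.1% higher and 27.2% lower over all sequences; of the 319, 153 rose and 20 fell. The median log2 change was 0.83, and 218 rose and 63 fell with library totals alone, 186 and 130 with factors set on noncoding entries. At1NC074970 read 0 in control, 0.543, 0.496 and 0.332 CPM in priming, 0.143, 0.247 and 0.445 in heat shock and 1.65, 2.32 and 2.74 in primed heat shock. Primed heat shock was above every other library and at least 390-fold higher than control. At1NC079830 was the clearest fall, from 1.12, 1.03 and 1.52 CPM in control to 0.177, 0.197 and 0.349 (log2 change -2.34 ± 0.31, edgeR adjusted p = 1.11e-05). It held 0.839, 1.1 and 1.02 CPM in heat shock and 1.5, 1.03 and 0.774 in priming, and neither passed against control. At5NC055270 and At1NC082210 changed by -1.47 ± 0.24 and -1.26 ± 0.26, and At2NC001370 by -1.46 ± 0.41, on the log2 scale.

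The design's central question, whether earlier mild heat alters the response to 43 °C, is addressed by primed heat shock against heat shock, in which both groups are 7 days old. Here 30 members rose and 20 fell, against 12.1% higher and 10.7% lower over all sequences, or 5.65% and 3.77% of members. Under 0.5 CPM 5.28% of members rose and 1.76% fell, against 3.38% and 4.39% of nuclear gene loci, and from 2 CPM upward 7.46% and 8.96% did, against 16.0% and 13.7%. The libraries did not overlap for 140 members, or 26.4%, against 42.3% of all sequences. Of the 319, 12 rose and 17 fell, and the median log2 change was -0.06 over the 531. With library totals alone 34 rose and 14 fell. The count of falls was 12 without heat shock replicate 2, 10 without heat shock replicate 3, and 8 without primed heat shock replicate 1 or 2.

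Of the 8 entries named as higher in primed heat shock than in heat shock, 7 also passed as higher in priming than in control, where 18.6% of members and 26.7% of all sequences did. These shares are no matched background for the 8, which were picked for the size of their change. Some of the 8 read 0 in control, which fixes the direction of any change in priming. At5NC013870, At1NC008170, At1NC074970 and At5NC060260 met the threshold on summed counts only through primed heat shock. At5NC013870 read 0 in control, 0.313, 0.282 and 0.221 CPM in priming, 0.0252, 0.0792 and 0.0262 in heat shock and 1.44, 1.57 and 1.8 in primed heat shock. The 4 groups did not overlap, and primed heat shock exceeded heat shock by 5.21 ± 0.40 on the log2 scale (edgeR adjusted p = 8.11e-07), or by 5.91 without heat shock replicate 2. At1NC074970 exceeded heat shock by 3.01 ± 0.36, At4NC024710 by 2.67 ± 0.42, At2NC066430 by 2.60 ± 0.43 and At3NC005080 by 1.82 ± 0.26. At2NC066430 read 0 in control and 0.609, 0.662 and 1.05 CPM in priming. At1NC008170 differed in that it was rare in priming too: it held 0.0329, 0.0584 and 0 CPM there, 0.0671, 0.0594 and 0.148 in heat shock and 1.41, 1.32 and 0.945 in primed heat shock (log2 change 3.72 ± 0.47). At5NC060260 read 0 in all control and priming libraries, 0.294, 0.396 and 0.524 CPM in heat shock and 2.48, 1.67 and 0.832 in primed heat shock (log2 change 2.04 ± 0.41). Of the 35 members at 0 in control, 6 rose and 0 fell in this comparison, where 5.65% of all members rose and 3.77% fell. The 6 include At5NC013870, At1NC074970 and At5NC060260, which met the threshold on summed counts only through primed heat shock. The shares of all members are therefore no matched background for this split, which was not tested.

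At5NC070340 went from 0.189, 0.161 and 0.123 CPM in control to 2.39, 2.26 and 2.84 in heat shock and 0.665, 0.709 and 0.883 in primed heat shock. Both 43 °C groups were above control, and primed heat shock was below heat shock by a log2 change of -1.73 ± 0.22 (edgeR adjusted p = 4.77e-05). At2NC028610 read 0.438, 0.647 and 0.725 CPM in control, 2.00, 1.39 and 1.60 in heat shock and 0.576, 0.439 and 0.647 in primed heat shock. It rose in heat shock by 1.45 ± 0.24 and overlapped control in primed heat shock, 1.59 ± 0.24 below heat shock on the log2 scale. At5NC011780 changed by -1.13 ± 0.24 between the 43 °C groups. The other 5 named, At5NC091510, At3NC041450, At2NC000020, At1NC093181 and At2NC033060, had log2 changes from -0.98 to -0.70 and each lost the call when certain single libraries were left out. These were heat shock replicate 1 and replicate 3 and primed heat shock replicates 1 and 2 for At5NC091510, and heat shock replicate 2 and primed heat shock replicates 1 and 2 for At3NC041450. For At2NC000020 they were control replicate 1, priming replicate 2, heat shock replicates 2 and 3 and primed heat shock replicates 1 and 2. For At1NC093181 they were heat shock replicate 3 and primed heat shock replicate 1, and for At2NC033060 heat shock replicates 2 and 3 and primed heat shock replicates 1 and 2. The adjusted p-values so obtained ran from 0.0526 to 0.265, and that of At2NC000020 was 0.0567 with harvest date as a block.

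Set directly against each other, the single heat treatments differed in temperature and age. Heat shock exceeded priming in 303 members and was lower in 41, against 33.8% higher and 29.0% lower over all sequences; of the 319, 166 were higher and 26 lower. With factors set on noncoding entries 216 were higher and 109 lower. At1NC103860, At3NC031590, At5NC069230 and At2NC067770 read 0 in all priming libraries and were at least 95-fold, 87.2-fold, 82.4-fold and 77.8-fold higher in heat shock. At5NC069230 held 0.0529, 0.0389 and 0.0502 CPM in control, so it was present without heat. In the other direction At4NC002310 changed by -4.40 ± 0.56, or -5.11 without heat shock replicate 3, on the log2 scale. At3NC007640, At3NC005080 and At3NC007630 followed with -3.40 ± 0.29, -2.94 ± 0.27 and -2.53 ± 0.30.

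Some abundant members had a narrow range of group means. At5NC018360, of 2968 bases, read 7.45, 8.85 and 6.94 CPM in control, 8.05, 7.34 and 9.07 in priming, 12.3, 12.6 and 12.6 in heat shock and 11.2, 11 and 11.2 in primed heat shock. It rose in heat shock by 0.69 ± 0.10 on the log2 scale (edgeR adjusted p = 5.93e-05), a change of -0.12 with factors set on noncoding entries, and overlapped control in priming. At2NC000010, of 966 bases and the fourth member per kilobase, held 492, 571 and 548 CPM in control and 532, 674 and 609 in heat shock, which overlapped. It passed in priming (0.37 ± 0.15, adjusted p = 0.0491) and in primed heat shock (0.48 ± 0.15, adjusted p = 0.0124) against control. The call in priming was lost without any 1 library other than priming replicate 3 and primed heat shock replicate 2, with adjusted p-values from 0.0542 to 0.247, and under the harvest date block (0.0647), and the change was -0.51 with library totals alone. That in primed heat shock was -0.29 with factors set on noncoding entries and was lost without control replicate 1 (0.0563) or primed heat shock replicate 1 (0.0537). At5NC097520, At2NC044090 and At2NC033060 completed the 5 members above 5 CPM with the narrowest range of group means, which does not make them constant. At2NC044090 read 32.4, 31.8 and 30.2 CPM in control and 64.3, 41.1 and 60.7 in priming, a rise of 0.81 ± 0.16 on the log2 scale (edgeR adjusted p = 0.000776) that was -0.069 with library totals alone. At2NC033060 rose by 0.76 ± 0.20 in priming, or -0.13 with library totals alone. In heat shock it rose by 0.66 ± 0.20, a call lost without control replicate 2 (adjusted p = 0.0580) and a change of -0.16 with factors set on noncoding entries. At5NC097520 changed by 0.51 ± 0.17 in heat shock against control (adjusted p = 0.0169), or -0.30 with factors set on noncoding entries. That call was lost without control replicate 2 or 3 or heat shock replicate 3, with adjusted p-values from 0.0736 to 0.0830. It changed by -0.51 ± 0.17 in primed heat shock against heat shock (adjusted p = 0.0389), a call lost under the block (0.0506) and without control replicate 2 or any 1 library of either group compared, where the adjusted p lay between 0.0516 and 0.166. Members were noisier than genes: the median biological coefficient of variation was 0.235 for members and 0.128 for nuclear gene loci. These medians were not matched for level: 341 of 531 members lay under 0.5 CPM, against 3462 of 23383 gene loci. Single libraries stood apart most often in priming, where replicate 1 was over 2-fold below both other libraries for 25 members and replicate 3 was over 2-fold above both for 17.

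Some neighbouring entries carried similar counts, and most did not. In identifier order 114 pairs of members were adjacent, and 197 members belonged to such a pair. In 17 pairs the summed counts differed by less than 10%, and 4 pairs had equal lengths. At2NC013970 and At2NC013971, both of 1280 bases, summed to 74290 and 73961, and the ratio between them stayed from 0.963 to 1.03 over the 12 libraries. At2NC014070 and At2NC014071, both of 1143 bases, summed to 9293 and 9284. At2NC044080 and At2NC044090 differ in length, 522 and 350 bases, yet summed to 54458 and 52777. Both members of a pair passed in heat shock against control in 49 pairs, in the same direction in 46, and in priming in 44 pairs, in the same direction in 40. No chance value was computed for these counts, and in heat shock most called members rose, whether or not they had a neighbour. Where entries overlap or repeat each other, the deposited counts cannot be separated between them, so such pairs may not be independent. The reverse also occurred: At1NC074970 and the next entry, At1NC075030, both passed in primed heat shock against heat shock in opposite directions.

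**Figure D4:**
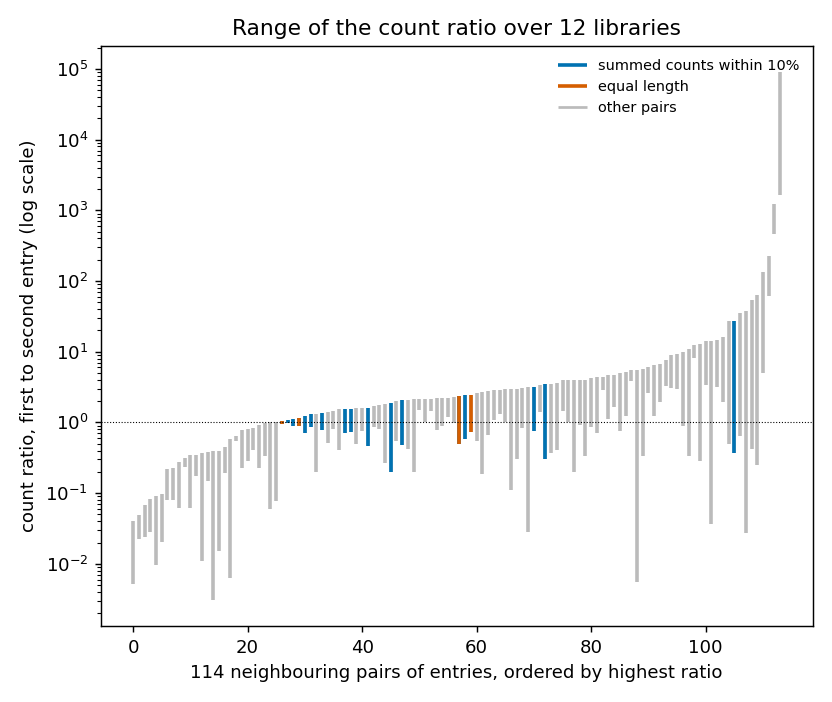
Range over the 12 libraries of the count ratio between neighbouring entries (vertical axis, log scale), 1 line for each of 114 pairs, ordered by the highest ratio. Pairs with summed counts within 10% are blue and the 4 pairs of equal length are orange; other pairs are grey, and 1 is marked by the dotted line.

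Annotated noncoding RNA genes, which are not members, gave a reference point. Of 9 listed, 8 were tested and IPS1 was not. In priming 2 rose and 5 fell: TAS1C, a precursor of trans-acting small RNAs, changed by -2.11 on the log2 scale, TAS2 by -1.79 and TAS1B by -1.47, while 7SL, the RNA of the signal recognition particle, rose by 1.26 and AT4, a decoy of a microRNA, by 0.67. In heat shock 2 rose and 0 fell, TAS2 by 1.22 and 7SL by 1.09. In primed heat shock against heat shock 0 rose and 1 fell, TAS2, which changed by -0.58. The median log2 change of this list was -1.01 in priming and -0.24 in heat shock.

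Genes that make, process or degrade noncoding RNA changed in both directions, and the shares of all sequences given above for each comparison are their background. Of 8 exosome and nuclear decay genes, 4 rose and 1 fell in priming and 2 rose and 1 fell in heat shock. RRP41, a core exosome subunit, rose by 0.43 and RRP44A, an exosome ribonuclease, by 0.23 on the log2 scale in heat shock, and the nuclear exonuclease gene XRN2 changed by -0.44. Of 7 cap-binding and processing genes, 3 rose and 1 fell in priming and 2 rose and 2 fell in heat shock. AGO1, the main effector of microRNAs, rose in priming by 1.38, SERRATE, a microRNA processing factor, by 0.58 and CBP80, a cap-binding subunit, by 0.51; DCL1, which cuts microRNA precursors, rose in heat shock by 0.55 while HYL1, its partner, changed by -0.41. Of 5 subunits of RNA polymerases II, IV and V, 3 rose and 0 fell in priming and 0 rose and 1 fell in heat shock, the last being NRPB1, the largest subunit of RNA polymerase II, at -0.40. In primed heat shock against heat shock 0 of the 8, 0 of the 7 and 1 of the 5 passed, the last being NRPD2, a subunit shared by polymerases IV and V, at -0.32. The median log2 changes in heat shock were 0.06, 0.06 and -0.07 for the 3 lists.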

How the data were processed

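The files hold raw read counts per reference sequence, as deposited by the authors, with columns ordered like the output of samtools idxstats. The submitters' processing notes name Bowtie2, SAMtools, DESeq2 and the build TAIR10; tool versions, roles and a strand setting are not given in the sources used here, so entries that overlap or repeat another sequence are uncertain. The general heat protocol in the labels gives 2 h, and durations here follow each group's own label. Ribosomal RNA, 17 sequences and 0.421% to 0.934% of aligned reads, was left out of library sizes and tests. Counts of the 12 libraries were fitted together in edgeR 4.0.16 (R 4.3.3, limma 3.58.1) with TMM factors, filterByExpr (by group, minimum count 10) and the robust quasi-likelihood test; p-values were adjusted by Benjamini-Hochberg over the 26159 sequences tested, with a threshold of 0.05. The SE of a log2 change is its size over the square root of F. Shares of counts were compared by exact two-sided permutation tests. Bounds against 0 use a floor of 3 counts over the group, and counting intervals are exact at 95%. The fit was checked on simulated counts.

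Named entries are the 10 highest per kilobase, the largest rises and falls past the threshold that reach 1 CPM in whichever group is higher and have libraries that do not overlap (up to 8 or 4 per direction), the 5 steadiest above 5 CPM, and those next to the threshold of 200 counts; other genes are named from the lists by their change. At1NC075030, At2NC014070 to At2NC014071 as a pair, and the chromosome 2 run were described after their values were seen. Members and lists were chosen with earlier results of these data known. Of 11 exosome genes listed, 3 whose symbols differ in the RefSeq table of TAIR10.1 were dropped. Replicate numbers share a harvest date per the labels, and so pair the samples; deviations of same-numbered libraries correlated from -0.08 to 0.13. No replicates were near-identical. Alternatives were other scalings, DESeq2 1.42.0, no filter, ribosomal RNA kept, the harvest date as a block, each library left out and other ways of choosing members.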

Additional observations from a re-analysis of the deposited data

How the results depend on the processing

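Counts of members higher and lower stayed within 1.5 times of those reported under the RLE and upper-quartile factors, scaling on nuclear gene loci, DESeq2, no filter, ribosomal RNA kept, near-equal neighbours counted once and the chromosome 2 run left out. With library totals alone, which moved the median of all sequences by -0.88 in priming, -0.48 in heat shock and -0.33 in primed heat shock against control, 0.12 in primed heat shock against heat shock and 0.43 in heat shock against priming, 53 members rose and 271 fell in priming, 60 fell in heat shock, 63 in primed heat shock against control and 21 in heat shock against priming; the log2 change in priming became -0.51 for At2NC000010, -0.069 for At2NC044090, -0.016 for At2NC044080 and -0.13 for At2NC033060. With factors set on noncoding entries, which moved those medians by -0.80 in heat shock and -0.73 in primed heat shock, 177 rose and 124 fell in heat shock, 186 and 130 in primed heat shock against control, and 109 were lower in heat shock than in priming. The log2 change then became -0.30 for At5NC097520, -0.12 for At5NC018360 and -0.16 for At2NC033060 in heat shock, -0.29 for At2NC000010, -0.24 for At3NC065400 and -0.24 for At5NC018360 in primed heat shock against control, and -0.16 for At5NC018360 in heat shock against priming. With the 143 members of at least 1000 counts, fewer by construction, 43 rose and 32 fell in priming, 82 and 9 in heat shock, 75 and 13 in primed heat shock against control, 8 rose in primed heat shock against heat shock, 68 and 17 were higher and lower in heat shock than in priming, and 118 differed among the 4 groups. With the 319 members, added after seeing the data as were the neighbour, chromosome 2 and control-chosen settings, 92 fell in priming, 152 rose in heat shock, 153 rose and 20 fell in primed heat shock against control, 12 rose in primed heat shock against heat shock, 166 and 26 were higher and lower in heat shock than in priming, and 241 differed among the 4 groups. Leaving out single libraries gave 14 to 23 falls in heat shock, the lowest without heat shock replicate 2, and 8 to 26 in primed heat shock against heat shock. The share difference of priming from control ran from -0.184 to 0.171 points over these, and was 0.146 with nuclear counts as denominator. With harvest date as a replicate block 99 rose and 133 fell in priming, 278 and 21 in heat shock, and 29 and 24 in primed heat shock against heat shock; it ended 5 calls of named members, At2NC000020 (adjusted p = 0.0567) and At5NC097520 (0.0506) in primed heat shock against heat shock, At2NC000010 in priming (0.0647), and At3NC065400 in primed heat shock against control (0.0759) and in heat shock against priming (0.0516). The cause of these differences was not tested. The median member had 0.343 CPM, and how small a change can be detected at that level was not measured.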
